A study of Homo sapiens with 18 samples.

Results

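The genes described here are 37 members of the human nuclear receptor family, out of 58825 genes in the count tables. They were taken from a fixed list of symbols that was chosen with earlier results of these data known. All 37 were found by their Ensembl identifiers in all 18 libraries. Nuclear receptors are transcription factors that carry a zinc-finger DNA-binding domain and, in most members, a pocket for a small fat-soluble ligand such as a steroid, a retinoid, thyroid hormone or an oxysterol. Ligand binding exchanges corepressors for coactivators on the receptor, and the orphan members act without a known natural hormone. In tumours of the ovary the family is known chiefly for the oestrogen, progesterone and glucocorticoid receptors.

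The cells were OVCAR-3, an established line of high-grade serous ovarian carcinoma. They received DMSO, 1 µM i-BET858 or 1 µM i-BET151 for 4 or 24 h, which gives 6 groups of 3 libraries. Both compounds inhibit the BET proteins, readers of acetylated histones. According to the labels the treatments were made in stripped medium. No receptor ligand was among the treatments, and what the stripping removed is not given in the sources used here. The study calls the replicates biological, and the line is a single cell line. The design allowed these comparisons: which members differed from DMSO with each BETi at each time, whether the effects differed between the times, and whether the 2 compounds differed from each other.

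The libraries held 27323969 to 46299994 counts each (median 32267434). Levels are given as CPM, the share of a library's counts scaled with TMM factors, and 3 counts correspond to 0.0653 to 0.109 CPM on that scale, depending on the library. That value is the limit that a count of 0 allows, and it covers counting error only. Fewer genes were seen at all in replicate 3 (17817 to 20642 per library) than in replicates 1 and 2 (23674 to 24947). The part of this gap in the results was not tested, but counts of members called with replicates 1 and 2 alone are given beside the comparisons. Of the markers of serous ovarian carcinoma, PAX8 lay at 387 to 612 CPM, WT1 at 102 to 180.3, EPCAM at 331 to 571 and MUC16 at 54.2 to 341. The summed level of the 7 markers was 2218 to 2508 CPM in DMSO, 2826 to 3018 with i-BET858 and 2443 to 2572 under i-BET151 at 4 h, and 2010.1 to 2388, 1840.2 to 1955 and 1993 to 2093 at 24 h. The summed level of 4 leukocyte markers was 1.39 to 3.09 CPM in the 24 h DMSO libraries, 0.861 to 1.4 with i-BET858 and 0.0582 to 0.805 under i-BET151, and CD3E reached at most 0.0363 in any library. That sum was 1.38 to 3.01 at 4 h. The summed level of 3 endothelial markers, of which VWF was the most abundant, was 3.03 to 4.62 CPM in DMSO at 24 h, 1.58 to 1.98 after i-BET858 and 0.578 to 3.87 after i-BET151. That of 4 fibroblast markers was 21.4 to 50.5 over all libraries, most of it COL1A1, while DCN reached at most 0.0729. The part of these traces in the results was not tested.

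In DMSO the levels per length spanned a wide range (CPM per kilobase of exon, mean ± SD over the 6 DMSO libraries). NR2F6, the orphan receptor EAR2 that is related to the COUP factors, stood highest at 54.9 ± 6.67, and all its libraries lay above those of the next gene. ESRRA, an orphan receptor that drives genes of mitochondrial metabolism, followed at 34.1 ± 3.49, and NR1D2, the REV-ERBβ repressor of the circadian clock, at 23.5 ± 4.62. The libraries of ESRRA and NR1D2 overlapped. RARG, the gamma retinoic acid receptor, came next at 16 ± 1.73 and was separate from its neighbours on both sides. NR1H2, which encodes the oxysterol receptor LXRβ, was at 10.8 ± 0.968 and overlapped with RXRA, the common partner of many receptors, at 8.61 ± 1.10. RXRA, PPARD (7.34 ± 0.742), RXRB (7.27 ± 0.827), VDR (6.66 ± 1.65) and NR2F2 (5.71 ± 0.333) formed a run in which each gene overlapped with the next.

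The classical oestrogen receptors stood near the bottom of this order. ESR2 was at 0.0449 ± 0.00927 and ESR1 at 0.0448 ± 0.0290 CPM per kilobase, and their libraries overlapped. ESR1 had between 0 and 36 counts per DMSO library. Below them were RXRG (0.0185 ± 0.0236), the progesterone receptor PGR (0.0162 ± 0.0174) and the liver factor HNF4A, of which the 6 DMSO libraries held at most 1 count each. These 3 members did not pass edgeR's filter on low counts at either time and have no value in the edgeR comparisons with DMSO. PGR passed the filter of the fit to all 18 libraries. The glucocorticoid receptor NR3C1 was at 2.72 ± 0.689 and the mineralocorticoid receptor NR3C2 at 0.349 ± 0.0586, on the same scale. The plot of levels in DMSO shows the whole order.

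**Figure D1:**
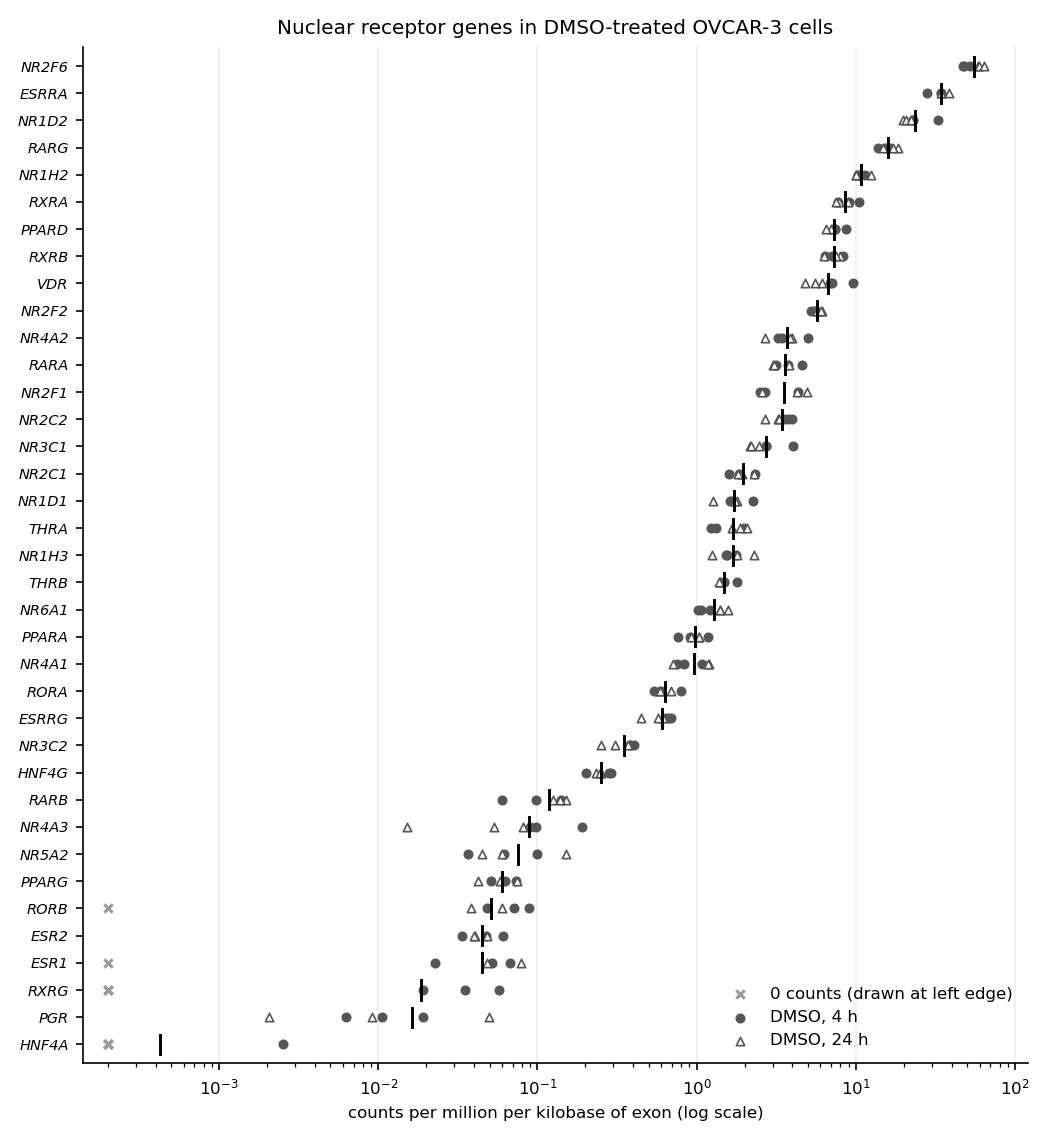
Level of the 37 nuclear receptor genes in DMSO-treated OVCAR-3 cells, in CPM per kilobase of exon on a log axis. Each symbol is a library (circles 4 h, triangles 24 h), bars are means over 6 libraries and crosses mark libraries with 0 counts. NR2F6, ESRRA, NR1D2 and RARG lead, and ESR2, ESR1, RXRG, PGR and HNF4A are last.

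Without a drug, 0 of the 35 members that could be tested with all 18 libraries were called between 24 h and 4 h of DMSO (edgeR, adjusted p under 0.05). This change was called for 0.0386% of all genes tested, and 6 members had an unadjusted p under 0.05, which 9.17% of all genes had. Neither DESeq2 nor replicates 1 and 2 alone gave a called member. VDR had the lowest adjusted p of the members, with a log2 fold change of −0.51 ± 0.14 (adjusted p = 0.213) and all 9 pairs of libraries lower at 24 h. With the replicate number as a block, VDR was called (−0.50, adjusted p = 0.0473).

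Against DMSO, 34 members passed the filter on low counts at each time. A gene was called at an adjusted p under 0.05 (edgeR quasi-likelihood test, Benjamini-Hochberg adjustment over all genes tested). After 4 h of i-BET858, 17 of the 34 were called, 7 higher and 10 lower, where 30.8% of all genes tested were called, 14.5% higher and 16.3% lower. With replicates 1 and 2 alone 19 were called, beside 7165 genes in all in place of 5303. At the same time i-BET151 gave 9 called members, 4 higher and 5 lower, against 16.2% of all genes (7.81% higher and 8.43% lower). The latter count depended on the pairing of replicates. With the replicate number as a block it was 19, with the 9 among them, and with replicates 1 and 2 alone it was 16. The count over all genes rose likewise, from 2791 to 5616 with the block and to 4433 with replicates 1 and 2 alone. Leaving out i-BET151 replicate 1 or DMSO replicate 3 of 4 h lowered it to 5, and the count over all genes to 1710 and 1934.

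After 24 h, i-BET858 gave 16 called members, 5 higher and 11 lower, against 41.7% of all genes (20.5% higher and 21.3% lower). With i-BET151 16 members were called as well, 8 higher and 8 lower, against 33.8% (17.2% higher and 16.6% lower). As shares of the 34 tested, these counts are 47.1% in each case, which lies near the background for i-BET858. With replicates 1 and 2 alone the counts were 19 and 22, beside 10507 and 9367 genes in all in place of 7158 and 5797. With single libraries left out the counts were as low as 11 with i-BET858 and 9 under i-BET151, the former without DMSO replicate 1 and the latter without i-BET151 replicate 2, where the counts over all genes fell to 6097 and 4272. The median log2 fold change of the members tested was −0.39 with i-BET858 and −0.30 under i-BET151 at 4 h, and −0.24 and −0.12 at 24 h. Over all genes tested these medians were 0.02, 0.01, −0.01 and 0.00.

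In all, 25 members were called in at least 1 of these 4 comparisons, where 55.7% of all genes tested were. NR4A3, VDR, RARG, RARA and RXRA were called in all 4, as were 8.87% of all genes tested at both times. With a fold change of at least 2 the counts were 7 and 4 at 4 h (14.1% and 7.1% of all genes tested) and 9 and 6 at 24 h (18.8% and 13.7%), for i-BET858 and i-BET151. These calls cover 14 members, whose values are given library by library below. In bulk RNA, fewer cells of a kind and less RNA per cell cannot be told apart. The plot of fold changes shows every member tested.

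**Figure D2:**
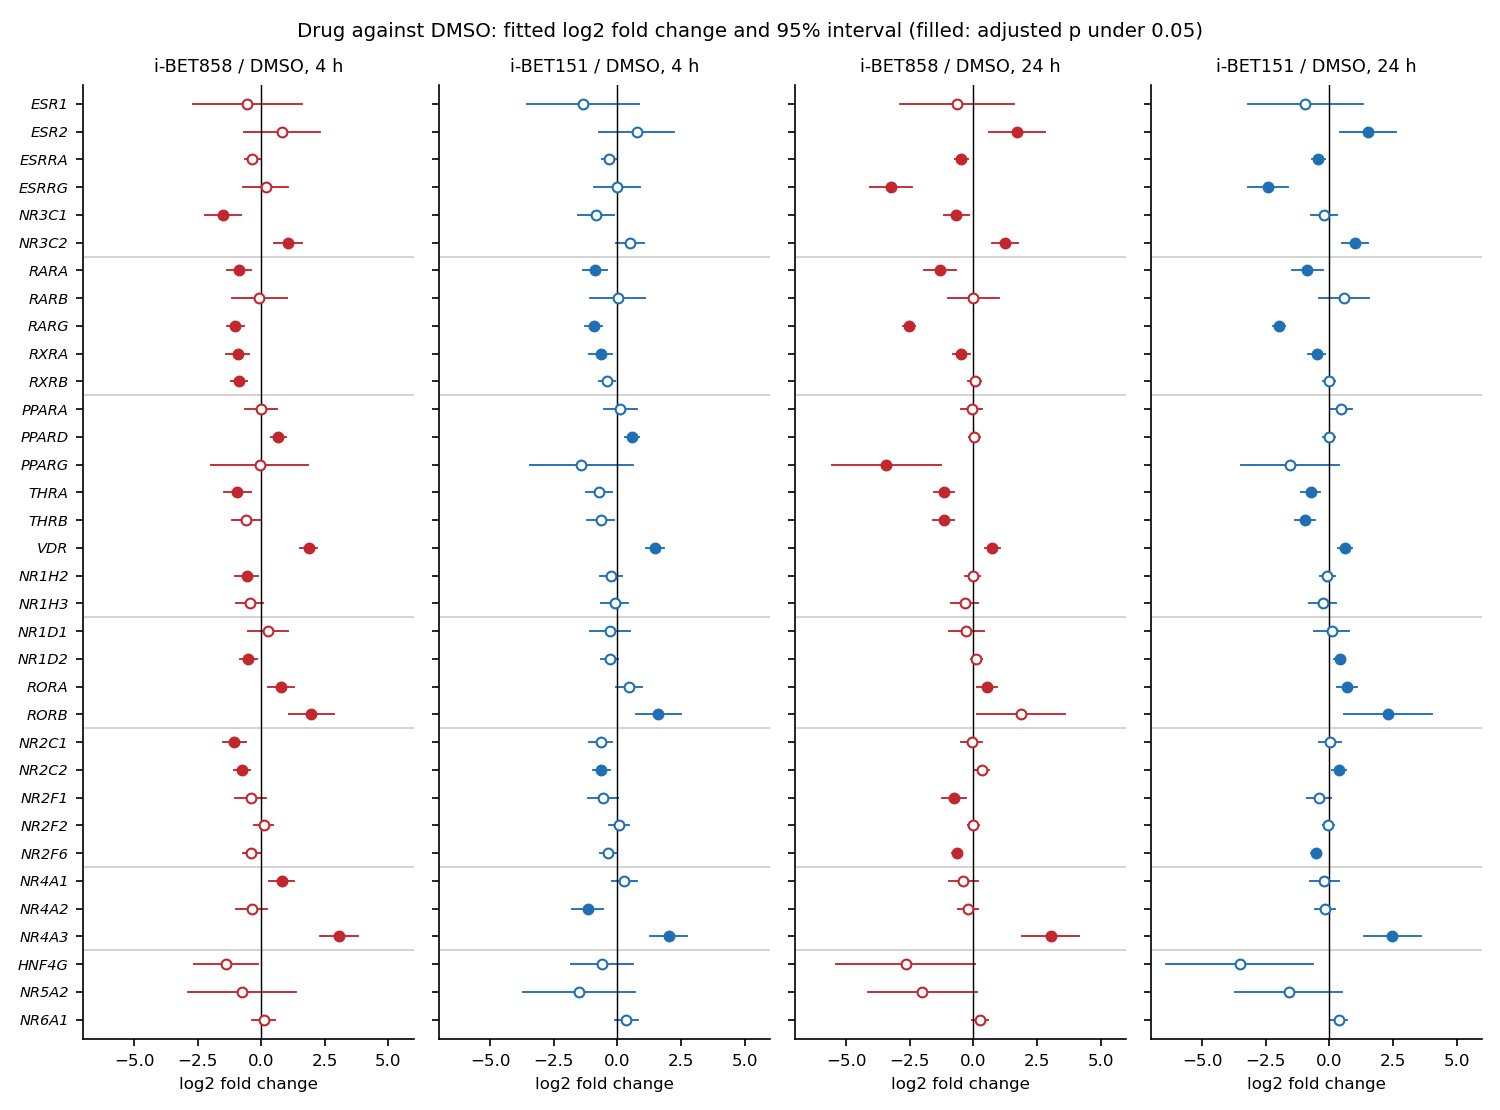
Log2 fold change against DMSO with its 95% interval for the 34 nuclear receptor genes tested, for each BETi at 4 and 24 h, with lines between the receptor groups. Filled points have an adjusted p under 0.05, and the retinoid receptors RARA, RARG and RXRA lie left of 0 in all 4 panels while VDR and NR4A3 lie right of it.

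The retinoid receptors had calls in 1 direction, downward. RARA, RARB and RARG bind retinoic acid and act as partners of RXRA, RXRB or RXRG on DNA. Of the 5 retinoid receptors tested, 4 fell with i-BET858 at 4 h and 3 in each of the other comparisons, and none rose. Over all genes tested, 16.3% and 8.43% were called lower at 4 h and 21.3% and 16.6% at 24 h, i-BET858 first. RARG (ENSG00000172819, chr12:53210567-53232980, GRCh38, minus strand) showed the largest change of the group. At 4 h its libraries held 70.8, 84.0 and 78.0 CPM with DMSO, 35.7, 33.2 and 45.3 under i-BET858 and 41.0, 35.8 and 45.9 under i-BET151. By 24 h the levels were 95, 88.2 and 75.6 CPM with DMSO, 16.5, 15.2 and 14.4 under i-BET858 and 22.8, 21.5 and 21.9 under i-BET151. No treated library reached a DMSO library at either time, and the treated libraries of 24 h lay under those of 4 h. The log2 fold change with i-BET858 was −1.02 ± 0.15 (adjusted p = 0.000441) at 4 h and −2.53 ± 0.11 (adjusted p = 3.59e-07) at 24 h, the latter a 5.77-fold lower level. With i-BET151 it was −0.93 ± 0.15 (adjusted p = 0.00192) and −1.99 ± 0.11 (adjusted p = 2.16e-06), or 3.97-fold lower at 24 h (± SE, edgeR). These 4 calls held under each alternative that was run.

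The RARG promoter is shown because RARG fell by most among the tested members with 1 start site in the RefSeq table. RARG also had the lowest adjusted p of all members in the 24 h comparisons. The RefSeq table (GRCh38.p14) lists 1 start site for it, and which start OVCAR-3 cells use is not known. The stretch is chr12:53232257-53232459, minus strand, 203 bases that lie upstream of that start (position 53232209) and outside annotated exons. The gene span given above (GENCODE 44) begins further upstream, at 53232980 on the minus strand, so the stretch lies within that span. Capitals mark GGGCGG, the letters of a GC box that SP factors bind, on either strand.
RARG: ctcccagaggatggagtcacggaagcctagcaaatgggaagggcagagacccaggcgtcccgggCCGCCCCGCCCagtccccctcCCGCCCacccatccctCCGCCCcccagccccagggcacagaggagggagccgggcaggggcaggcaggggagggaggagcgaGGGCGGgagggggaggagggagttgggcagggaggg
The 250 bases before the start hold 5 such matches, of which a pair overlaps by a single base. Of the 35116 RefSeq windows of this length, 4.15% hold at least as many, and 42.6% hold at least 1. None of AGGTCA (the nuclear receptor core site), TGACGTCA, TGACG or CACGTG occurs in the window on either strand.

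Across the 33 members with a window in this table, GGGCGG was found in 52.4% of their 84 windows and AGGTCA in 14.3%, against 12.1% of all windows for the latter. AGGTCA stood in windows of ESR2, ESRRG, NR1H3, NR5A2, PPARG, RARA, RARB and RXRG. CACGTG, the E-box that clock proteins bind, was in 6.0% of the members' windows and 6.3% of all. VDR, NR2F6, NR4A2 and HNF4G have no entry. Such matches describe letters only.

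RARA (ENSG00000131759, chr17:40309180-40357643, plus strand) had a lower level. Its 4 h libraries held 17.7, 15.0 and 21.8 CPM with DMSO, 8.46, 8.95 and 12.2 under i-BET858 and 8.40, 10.2 and 11.1 under i-BET151. Those of 24 h held 14.3, 14.6 and 18.1 CPM with DMSO, 5.46, 6.36 and 7.78 under i-BET858 and 6.78, 6.38 and 13.1 under i-BET151. No treated library overlapped with DMSO, and i-BET151 replicate 3 stood above the other 2 of its group at 24 h. RARA fell by 0.87 ± 0.21 (adjusted p = 0.00856) with i-BET858 and by 0.88 ± 0.21 (adjusted p = 0.0158) under i-BET151 at 4 h, on the log2 scale. At 24 h it fell by 1.31 ± 0.28 (adjusted p = 0.00337) and by 0.86 ± 0.28 (adjusted p = 0.0337). With i-BET151 the 4 h call was lost without any one of DMSO replicate 3 or i-BET151 replicate 1 (adjusted p up to 0.0724) and the 24 h call without any one of DMSO replicates 1, 2 and 3 or i-BET151 replicates 1 and 2 and with only the groups compared (adjusted p up to 0.124). RARA shares 11.7% of its exon bases with RARA-AS1 on the other strand, and the strand setting of the counting is not given in the sources used here.

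Among the partners, RXRA fell in all 4 comparisons, by 0.93 (adjusted p = 0.00499) and 0.65 (adjusted p = 0.0498) at 4 h and by 0.47 (adjusted p = 0.0299) and 0.49 (adjusted p = 0.0293) at 24 h, i-BET858 first. With i-BET858 the 24 h call was lost without any one of DMSO replicates 1 and 3 or i-BET858 replicates 1 and 2 and with all 18 libraries in the fit (adjusted p up to 0.11). With i-BET151 the 4 h call was lost without any one of DMSO replicates 1, 2 and 3, i-BET151 replicates 1 and 2 or i-BET858 replicates 1 and 2 and with DESeq2 size factors or only the groups compared (adjusted p up to 0.17) and the 24 h call without any one of DMSO replicates 1 and 3 or i-BET151 replicates 1 and 2 and with only the groups compared or all 18 libraries in the fit (adjusted p up to 0.113). RXRB fell with i-BET858 at 4 h, from 28.4 ± 3.83 to 15.3 ± 0.661 CPM (mean ± SD, n = 3), with a log2 fold change of −0.89 ± 0.14 (adjusted p = 0.000754). With i-BET151 its value was −0.41 ± 0.14 (adjusted p = 0.0781), which was called with the replicate block (−0.41, adjusted p = 0.018). At 24 h RXRB had 0.05 ± 0.11 and −0.01 ± 0.11 and was called with neither compound. RXRB shares 9.26% of its exon bases with SLC39A7 on the other strand. RARB, which retinoic acid itself induces in many cells, stayed between 0.526 and 2.42 CPM and was not called in any comparison. RXRG had at most 0.611 CPM in a library. At 24 h its counts were 0 in each DMSO library, 1, 0 and 3 with i-BET858 and 2, 3 and 21 under i-BET151, most of them in i-BET151 replicate 3. In that comparison DESeq2 and edgeR without the filter called it (adjusted p = 0.0333 and 0.0351).

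Genes that retinoic acid is known to induce were read beside their receptors. This list, like the further gene lists below, was chosen with earlier results of these data known. Of 8 such genes tested, 1 rose and 1 fell with i-BET858 at 4 h, 0 rose and 1 fell under i-BET151, and at 24 h 4 fell with each compound. At 4 h 14.5% of all genes were called higher and 16.3% lower with i-BET858, and 7.81% and 8.43% under i-BET151. At 24 h 21.3% and 16.6% were called lower, i-BET858 first. The same shares, and 20.5% and 17.2% called higher at 24 h, stand beside the counts of the further gene lists below. DHRS3, which reduces retinaldehyde, fell in all 4 comparisons, by 1.07 and 1.29 at 4 h and by 3.61 and 2.32 at 24 h on the log2 scale (adjusted p at most 0.0058). The 4 h call of DHRS3 with i-BET858 was lost with all 18 libraries in the fit (adjusted p = 0.0596). TGM2, a transglutaminase, fell at 24 h by 1.70 and 1.49 (adjusted p = 0.00011 and 0.000384). PLAAT4 fell at 24 h by 2.51 and 3.76 (adjusted p = 0.0213 and 0.00525), the first a call lost without any one of DMSO replicates 2 and 3 or i-BET858 replicates 1 and 2 (adjusted p up to 0.081). CRABP2, a carrier of retinoic acid, rose with i-BET858 at 4 h by 0.42 (adjusted p = 0.00414), a call lost with total library sizes (adjusted p = 0.0519), and at 24 h fell by 0.97 and 0.48 (adjusted p = 2.71e-05 and 0.00331).

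The NR4A genes encode orphan receptors that are induced within minutes to hours by many stimuli and act without a ligand. NR4A3 (ENSG00000119508, chr9:99821855-99866891, plus strand) rose in all 4 comparisons. Its 4 h libraries held 0.614, 1.21 and 0.564 CPM with DMSO, 5.43, 6.66 and 8.06 under i-BET858 and 3.02, 2.94 and 3.82 under i-BET151. After 24 h the levels were 0.515, 0.337 and 0.0955 CPM with DMSO, 2.87, 2.64 and 2.6 under i-BET858 and 2.0, 2.19 and 1.19 under i-BET151. Every treated library lay above every DMSO library of its time, although the counts are small, 3 to 284 per library. The log2 fold change was 3.06 ± 0.34 (adjusted p = 6.48e-05) with i-BET858 and 2.02 ± 0.34 (adjusted p = 0.00212) under i-BET151 at 4 h, or 8.37-fold and 4.05-fold. The 24 h values were 3.05 ± 0.51 (adjusted p = 0.000725) and 2.47 ± 0.50 (adjusted p = 0.00344), or 8.26-fold and 5.54-fold. NR4A3 passed the filter of 24 h with all treated libraries but only 2 DMSO libraries over the threshold of 0.294 CPM. In each of these comparisons the call held under every alternative that was run.

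The NR4A3 promoter is shown as that of the member with the largest rise. The RefSeq table gives it 1 start site, and the stretch is chr9:99821635-99821854, plus strand, 220 bases upstream of the annotated exons (GRCh38.p14). Capitals mark TGACG on either strand, the shared core of cyclic AMP response elements. This motif was chosen after the sequence had been read.
NR4A3: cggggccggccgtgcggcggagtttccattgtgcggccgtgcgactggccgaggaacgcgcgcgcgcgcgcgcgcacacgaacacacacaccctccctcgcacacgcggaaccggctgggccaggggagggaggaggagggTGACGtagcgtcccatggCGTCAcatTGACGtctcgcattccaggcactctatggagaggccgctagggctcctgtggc
The printed bases hold 3 matches and the 250 bases before the start hold 4. At least 1 match occurs in 21.2% of the 35116 windows and in 17.9% of the members' windows. This core is contained in the longer TGACGTCA. The window holds neither that motif nor the AGGTCA, E-box and GC-box letters.

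NR4A2 (ENSG00000153234, chr2:156324437-156342348, minus strand) moved the other way in a single comparison. At 4 h its libraries held 13.3, 20.7 and 14.1 CPM with DMSO, 10.7, 16 and 10.3 under i-BET858 and 7.08, 9.60 and 5.0 under i-BET151. All 3 i-BET151 libraries lay under all DMSO libraries, and the i-BET858 libraries overlapped with DMSO. NR4A2 fell with i-BET151 by 1.16 ± 0.28 (adjusted p = 0.0157), while the value with i-BET858 was −0.38 ± 0.27 (adjusted p = 0.334). This call was lost without any one of DMSO replicate 2 or i-BET151 replicate 1 (adjusted p up to 0.0743). At 24 h NR4A2 held 16.4, 16 and 11.0 CPM with DMSO, 14.2, 13.5 and 11.1 under i-BET858 and 14, 14 and 11.3 under i-BET151, and the groups overlapped. NR4A1 rose with i-BET858 at 4 h, from 6.48 ± 1.26 to 11.3 ± 2.48 CPM, by 0.81 ± 0.22 (adjusted p = 0.0167). The call was lost without any one of DMSO replicates 1 and 3 or i-BET858 replicate 3 and with replicates 1 and 2 alone (adjusted p up to 0.0727). The other values of NR4A1 were 0.27 ± 0.22 at 4 h with i-BET151 and −0.39 ± 0.26 and −0.19 ± 0.25 at 24 h, none of them called. With replicates 1 and 2 alone both 24 h values were called (−0.56, adjusted p = 0.0155 and −0.60, adjusted p = 0.0135). NR4A1 shares 10.3% of its exon bases with NR4A1AS.

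VDR, the receptor of the active form of vitamin D, rose in all 4 comparisons (ENSG00000111424, chr12:47841537-47943048, minus strand). The 4 h libraries held 39.2, 40.0 and 54.2 CPM with DMSO, 142, 185 and 154 under i-BET858 and 119.8, 119 and 135 under i-BET151. The 24 h libraries held 34.8, 31.5 and 27.2 CPM with DMSO, 54.5, 52.2 and 55.1 under i-BET858 and 45.1, 44.2 and 55.9 under i-BET151. All treated libraries lay above all DMSO libraries of the same time, and those of 4 h lay far above those of 24 h. VDR rose by 1.86 ± 0.16 (adjusted p = 9.41e-06) with i-BET858 and by 1.48 ± 0.16 (adjusted p = 0.000122) under i-BET151 at 4 h, which is 3.62-fold and 2.80-fold. At 24 h it rose by 0.75 ± 0.13 (adjusted p = 0.000713) and 0.61 ± 0.13 (adjusted p = 0.00337), the latter 0.39 with replicates 1 and 2 alone. No gene of a short list that this receptor is known to induce was called higher. Of 4 tested at 4 h, CYP24A1, the vitamin D hydroxylase, fell with i-BET858 by 3.54 ± 1.14 (adjusted p = 0.0351), a call lost without any one of DMSO replicates 1, 2 and 3, i-BET151 replicates 1 and 2 or i-BET858 replicates 1, 2 and 3 (adjusted p up to 0.121). CYP24A1 passed the filter of 4 h through the DMSO libraries, with 0 i-BET858 and 0 i-BET151 libraries over the threshold of 0.313 CPM. At 24 h the calcium channel gene TRPV6 fell by 1.74 and 2.22 (adjusted p = 0.0217 and 0.0093) among 3 tested. The first of these calls was lost without any one of DMSO replicates 1 and 2 or i-BET858 replicate 1 and with no filter (adjusted p up to 0.0986) and the second without DMSO replicate 2 (adjusted p = 0.0516). Of the genes tested at 24 h, CD14 is also among the leukocyte markers given above. CD14, ORM1 and TRPV6 each passed the filter with fewer than 3 treated libraries of a group over its threshold. The part of these limits in the result was not tested.

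The thyroid hormone receptors fell at 24 h. THRA (ENSG00000126351, chr17:40058290-40093867, plus strand) held 9.64, 9.07 and 14.6 CPM with DMSO, 6.16, 5.67 and 5.45 under i-BET858 and 6.42, 5.49 and 8.26 under i-BET151 at 4 h. Its 24 h libraries held 13.7, 12.3 and 15.1 CPM with DMSO, 7.12, 5.61 and 6.23 under i-BET858 and 7.20, 8.67 and 9.28 under i-BET151. The treated libraries lay under the DMSO libraries at both times. THRA fell with i-BET858 by 0.94 ± 0.24 (adjusted p = 0.0109) at 4 h and by 1.16 ± 0.17 (adjusted p = 0.000326) at 24 h. With i-BET151 it fell by 0.74 ± 0.17 (adjusted p = 0.00687) at 24 h, and the 4 h call with i-BET858 was lost without DMSO replicate 3 (adjusted p = 0.0521). The 4 h value with i-BET151 was −0.72 ± 0.24 (adjusted p = 0.0606), called with the replicate block (−0.72, adjusted p = 0.00924). THRA and NR1D1 share 473 exon bases on opposite strands, 6.45% of the former and 17.98% of the latter. THRB (ENSG00000151090, chr3:24117153-24495756, minus strand) held 16.3, 16.2 and 19.6 CPM with DMSO, 9.26, 10.7 and 14.1 under i-BET858 and 8.78, 9.01 and 15.2 under i-BET151 at 4 h. Its 24 h libraries held 15.4, 15.3 and 15.2 CPM with DMSO, 7.83, 5.22 and 7.87 under i-BET858 and 7.22, 8.06 and 8.47 under i-BET151. No treated library reached a DMSO library of its time. At 24 h THRB fell by 1.17 ± 0.18 (adjusted p = 0.000402) with i-BET858 and by 0.97 ± 0.18 (adjusted p = 0.00182) under i-BET151. The 4 h values, −0.61 ± 0.24 (adjusted p = 0.0833) and −0.66 ± 0.24 (adjusted p = 0.0966), were called with the replicate block (−0.63, adjusted p = 0.00322 and −0.70, adjusted p = 0.00261).

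The PPAR genes encode fatty acid sensors and went separate ways. PPARD rose at 4 h by 0.67 ± 0.13 (adjusted p = 0.00263) with i-BET858 and 0.58 ± 0.13 (adjusted p = 0.0124) under i-BET151, from 34.9 ± 3.43 to 55.5 ± 5.96 and 52.2 ± 3.64 CPM. The call with i-BET151 was lost without any one of DMSO replicates 1 and 2 (adjusted p up to 0.0571). At 24 h its values were 0.04 ± 0.10 and −0.02 ± 0.10, not called. PPARG (ENSG00000132170, chr3:12287368-12434356, plus strand), the adipocyte receptor, was low throughout. At 4 h it held 0.614, 0.747 and 0.877 CPM with DMSO, 0.875, 0.426 and 0.823 under i-BET858 and 0.382, 0.473 and 0 under i-BET151. At 24 h it held 0.696, 0.505 and 0.891 CPM with DMSO, 0.152, 0.0278 and 0 under i-BET858 and 0.195, 0.152 and 0.378 under i-BET151, with 7, 1 and 0 counts in the i-BET858 libraries. Every treated library of 24 h was under every DMSO library. PPARG fell with i-BET858 at 24 h by 3.42 ± 0.97 (adjusted p = 0.0158), a call lost without i-BET858 replicate 2 (adjusted p = 0.0716). Without i-BET858 replicate 1 the value was −5.33, and the value with i-BET151 was −1.54 ± 0.87 (adjusted p = 0.206), called with replicates 1 and 2 alone (−1.80, adjusted p = 0.0194). PPARG passed the filter of 24 h through the DMSO libraries, with 0 i-BET858 libraries and 1 i-BET151 library over the threshold of 0.294 CPM. PPARA lay between 7.91 and 21.8 CPM and was called only with the replicate block, with i-BET151 at 24 h (0.46, adjusted p = 0.0264).

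Of the genes that PPARs are known to induce, 4 of 8 rose and 0 fell with i-BET858 at 4 h, 0 rose and 1 fell under i-BET151, and at 24 h 3 of 7 rose and 1 fell with each compound. The list medians were 0.42 and 0.25 at 4 h and 0.49 and 0.44 at 24 h. The lipid droplet gene PLIN2 fell at 24 h by 1.12 and 0.84 (adjusted p = 8.62e-05 and 0.000816), while CPT1A, which brings fatty acids into mitochondria, rose by 0.77 and 0.85 (adjusted p = 0.0346 and 0.0265). The calls of CPT1A were lost without any one of DMSO replicate 3 or i-BET858 replicates 1 and 2 and with total library sizes or only the groups compared (adjusted p up to 0.122) and without any one of i-BET151 replicates 1 and 2 and with total library sizes (adjusted p up to 0.089). The LXR gene NR1H2 fell with i-BET858 at 4 h by 0.58 ± 0.20 (adjusted p = 0.0483), a call lost without any one of DMSO replicates 1, 2 and 3, i-BET151 replicate 2 or i-BET858 replicates 1 and 2 and with DESeq2 size factors (adjusted p up to 0.163). Its other values were −0.25 ± 0.20 (adjusted p = 0.462) with i-BET151 at 4 h and −0.03 ± 0.13 (adjusted p = 0.901) and −0.08 ± 0.13 (adjusted p = 0.685) at 24 h. NR1H2 shares 22.1% of its exon bases with NAPSA. The other LXR gene, NR1H3, was not called and lay between 4.17 and 10.4 CPM. With replicates 1 and 2 alone NR1H3 was called with i-BET858 at 24 h (−0.45, adjusted p = 0.0287) and NR1H2 under i-BET151 at 4 h (−0.42, adjusted p = 0.0356). Of 8 known LXR targets, 3 rose with i-BET858 and 2 under i-BET151 at 4 h, and at 24 h 2 and 1 rose while 3 fell with each. Those that fell were ABCA1, SCD and SREBF1 with i-BET858 and APOE, SCD and SREBF1 under i-BET151. The list medians were 0.40 and 0.15 at 4 h and −0.07 and −0.08 at 24 h. ABCG1, a cholesterol exporter, rose in all 4 comparisons, by 2.03, 1.44, 1.88 and 1.49 for i-BET858 and i-BET151 at 4 h and then at 24 h (adjusted p at most 0.00294).

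Among the steroid and oestrogen-related receptors, the corticosteroid receptors went in opposite directions. NR3C1, the glucocorticoid receptor (ENSG00000113580, chr5:143277931-143435512, minus strand), held 25.1, 25.1 and 36.9 CPM with DMSO, 6.42, 11.2 and 12.7 under i-BET858 and 12.0, 12.3 and 24.4 under i-BET151 at 4 h. In the 24 h libraries it held 19.9, 20.0 and 22.7 CPM with DMSO, 13.9, 9.44 and 17.2 under i-BET858 and 14.2, 18.2 and 22.7 under i-BET151. All i-BET858 libraries lay under all DMSO libraries at both times, and the i-BET151 libraries overlapped with DMSO at 24 h. NR3C1 fell with i-BET858 by 1.52 ± 0.32 at 4 h (adjusted p = 0.00421) and by 0.67 ± 0.23 at 24 h (adjusted p = 0.0355), the latter a call lost without any one of DMSO replicates 1, 2 and 3, i-BET151 replicate 2 or i-BET858 replicates 1 and 2 and with all 18 libraries in the fit (adjusted p up to 0.115). With i-BET151 the 4 h value was −0.84 ± 0.32 (adjusted p = 0.102), which was called with the replicate block (−0.89, adjusted p = 0.000816), and the 24 h value was −0.21 ± 0.23 (adjusted p = 0.53).

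NR3C2, the mineralocorticoid receptor (ENSG00000151623, chr4:148078762-148444698, minus strand), held 2.52, 2.52 and 2.66 CPM with DMSO, 4.41, 6.89 and 4.63 under i-BET858 and 4.03, 3.53 and 3.45 under i-BET151 at 4 h. The 24 h levels were 2.03, 1.65 and 2.45 CPM with DMSO, 5.44, 4.80 and 4.71 under i-BET858 and 3.76, 3.95 and 4.86 under i-BET151. Each treated library exceeded each DMSO library of its time. NR3C2 rose with i-BET858 by 1.05 ± 0.25 at 4 h (adjusted p = 0.0078) and by 1.24 ± 0.24 at 24 h (adjusted p = 0.00168). With i-BET151 it rose by 1.01 ± 0.24 at 24 h (adjusted p = 0.00748), and the 4 h value was 0.51 ± 0.25 (adjusted p = 0.202). The calls of NR3C2 held under every alternative that was run.

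Of the listed targets of the glucocorticoid receptor, chosen with earlier results of these data known, most were higher at 4 h. Of 10 tested, 7 rose and 0 fell with i-BET858, and 7 rose and 1 fell under i-BET151, with list medians of 1.60 and 1.21 on the log2 scale beside 0.02 and 0.01 over all genes. At 24 h, 4 rose and 3 fell with each compound, with medians of 0.53 and 0.35. With each compound ERRFI1, MT2A, PER1 and SGK1 rose at 24 h and CEBPD, NFKBIA and TSC22D3 fell. Of the 3 that fell, 1 fell at least 2-fold with i-BET858 and 2 under i-BET151. CEBPD was also the gene that fell under i-BET151 at 4 h. SGK1, a kinase that corticosteroids induce, rose by 2.33 and 1.13 at 4 h and by 1.76 and 1.41 at 24 h (adjusted p at most 0.0129), of which the 4 h call with i-BET151 was lost without i-BET151 replicate 1 (adjusted p = 0.0598). ERRFI1, an inhibitor of EGFR signalling, rose by 2.01, 1.29, 0.96 and 0.67 (adjusted p at most 0.00101). ANGPTL4 rose at 4 h by 3.43 and 2.35 (adjusted p = 0.000383 and 0.00773). Many of these genes also answer to stress and growth signals. The chaperones that hold steroid receptors ready for ligand were called higher for 6 of 10 genes with i-BET858 and 3 under i-BET151 at 4 h, and at 24 h 2 rose and 1 fell with each. Their medians were 0.48 and 0.24 at 4 h and 0.09 and 0.01 at 24 h. FKBP5, itself a classical glucocorticoid target, rose by 1.53 and 1.23 at 4 h and by 1.25 and 1.25 at 24 h (adjusted p at most 0.000159).

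ESRRG, an orphan receptor of oxidative metabolism (ENSG00000196482, chr1:216503246-217137755, minus strand), did not pass the test at 4 h and fell at 24 h. At 4 h its libraries held 7.52, 6.98 and 7.33 CPM with DMSO, 6.86, 4.66 and 12.9 under i-BET858 and 7.53, 3.45 and 10.8 under i-BET151. Replicate 3 was the highest and replicate 2 the lowest with each compound, and the groups overlapped. At 24 h it held 6.72, 4.88 and 6.24 CPM with DMSO, 0.849, 0.528 and 0.556 under i-BET858 and 0.659, 1.52 and 1.25 under i-BET151, so that no treated library came near the DMSO libraries. ESRRG fell at 24 h by 3.23 ± 0.37 with i-BET858 (adjusted p = 6.28e-05) and by 2.41 ± 0.36 under i-BET151 (adjusted p = 0.000497), which is 9.39-fold and 5.31-fold. The 4 h values were 0.17 ± 0.41 and 0.00 ± 0.41. ESRRA, the abundant relative, fell at 24 h by 0.47 ± 0.11 (adjusted p = 0.007) and 0.43 ± 0.11 (adjusted p = 0.0137). The call with i-BET151 was lost without i-BET151 replicate 2 (adjusted p = 0.0621). Its 4 h values, −0.35 ± 0.13 (adjusted p = 0.0684) and −0.31 ± 0.13 (adjusted p = 0.14), were called with the replicate block (−0.35, adjusted p = 0.0042 and −0.31, adjusted p = 0.0122). ESRRA shares 9.16% of its exon bases with TRMT112 on the other strand.

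ESR2, which encodes oestrogen receptor beta (ENSG00000140009, chr14:64084232-64338112, minus strand), rose at 24 h from a low level. The 4 h libraries held 0.399, 0.721 and 0.564 CPM with DMSO, 0.584, 1.61 and 0.767 under i-BET858 and 1.15, 1.49 and 0.253 under i-BET151, with overlap between the groups. At 24 h they held 0.484, 0.572 and 0.478 CPM with DMSO, 2.09, 2.39 and 0.672 under i-BET858 and 1.88, 1.43 and 1.16 under i-BET151. All treated libraries of 24 h exceeded all DMSO libraries, with i-BET858 replicate 3 the lowest of them. ESR2 rose by 1.70 ± 0.50 with i-BET858 (adjusted p = 0.0186) and by 1.52 ± 0.50 under i-BET151 (adjusted p = 0.0384). The first of these calls was lost without any one of DMSO replicate 1 or i-BET858 replicates 1 and 2 (adjusted p up to 0.0834) and the second without any one of DMSO replicates 1, 2 and 3, i-BET151 replicates 1 and 2 or i-BET858 replicates 1 and 2 and with all 18 libraries in the fit (adjusted p up to 0.124). ESR1, oestrogen receptor alpha, was not called, with values from −1.35 ± 1.01 to −0.56 ± 0.97 and at most 1.08 CPM in a library. With replicates 1 and 2 alone it was called with i-BET151 at 24 h (−1.51, adjusted p = 0.0213). PGR, a classical oestrogen target, had at most 0.732 CPM. Of 11 known oestrogen receptor targets tested, 2 rose and 2 fell with i-BET858 at 4 h and 1 rose and 3 fell at 24 h, and the counts for i-BET151 were 1 and 2 at 4 h and 1 and 4 at 24 h. The list medians were 0.30 and −0.01 at 4 h and −0.32 and −0.44 at 24 h. RET, a receptor tyrosine kinase, rose in all 4 comparisons, by 3.90, 3.31, 3.41 and 3.05 (adjusted p at most 0.002). XBP1, a factor of the unfolded protein response, fell in all 4, by 2.04 and 1.59 at 24 h (adjusted p = 1.13e-06 and 8.45e-06).

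The clock receptors comprise the REV-ERB repressors NR1D1 and NR1D2 and the ROR activators, which compete for the same DNA elements. RORB (ENSG00000198963, chr9:74497335-74693177, plus strand) rose from a level near the floor. Its 4 h libraries held 0.461, 0.850 and 0.689 CPM with DMSO, 1.90, 3.94 and 2.04 under i-BET858 and 2.29, 2.14 and 1.74 under i-BET151. Those of 24 h held 0.575, 0.370 and 0 CPM with DMSO, 1.35, 1.28 and 0.936 under i-BET858 and 1.44, 1.52 and 1.83 under i-BET151, with 0 counts in DMSO replicate 3. No DMSO library reached a treated library. RORB rose at 4 h by 1.97 ± 0.41 (adjusted p = 0.00356) with i-BET858 and by 1.61 ± 0.41 (adjusted p = 0.02) under i-BET151. At 24 h it rose with i-BET151 by 2.31 ± 0.79 (adjusted p = 0.0429), a call lost without any one of DMSO replicate 2, i-BET151 replicates 1, 2 and 3 or i-BET858 replicates 1 and 2 and with total library sizes or only the groups compared (adjusted p up to 0.0998). The 4 h call with i-BET151 was lost without any one of DMSO replicates 1 and 3 or i-BET151 replicates 1 and 2 and with all 18 libraries in the fit (adjusted p up to 0.0846). The i-BET858 value of 24 h was 1.87 ± 0.78 (adjusted p = 0.079), called with the replicate block (2.0, adjusted p = 0.0362). RORB passed the filter of 24 h with all treated libraries but only 2 DMSO libraries over the threshold of 0.294 CPM.

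RORA rose with i-BET858 at 4 h by 0.77 ± 0.23 (adjusted p = 0.0258) and at 24 h by 0.53 ± 0.18 (adjusted p = 0.0372), and under i-BET151 at 24 h by 0.68 ± 0.18 (adjusted p = 0.0141). The calls with i-BET858 were lost without any one of DMSO replicates 1 and 2 or i-BET858 replicates 2 and 3 and with total library sizes (adjusted p up to 0.106) at 4 h and without any one of DMSO replicates 1, 2 and 3 or i-BET858 replicates 1 and 3 and with total library sizes or replicates 1 and 2 alone (adjusted p up to 0.124) at 24 h. That under i-BET151 was lost without any one of DMSO replicate 1 or i-BET151 replicate 2 (adjusted p up to 0.0677). Its 4 h value with i-BET151, 0.45 ± 0.23 (adjusted p = 0.225), was called with the replicate block (0.45, adjusted p = 0.0398). NR1D2 fell with i-BET858 at 4 h, from 151 ± 33.1 to 106 ± 6.42 CPM, by 0.51 ± 0.16 (adjusted p = 0.0292), a call lost without any one of DMSO replicate 1 or i-BET858 replicates 2 and 3 (adjusted p up to 0.125). Its 4 h value under i-BET151, −0.30 ± 0.16 (adjusted p = 0.236), was called with the replicate block (−0.28, adjusted p = 0.0283). At 24 h NR1D2 rose with i-BET151 by 0.41 ± 0.10 (adjusted p = 0.00921), and the value with i-BET858 was 0.12 ± 0.10 (adjusted p = 0.388). NR1D1 was not called and lay between 2.19 and 7.51 CPM, but was called lower with i-BET151 at 24 h with replicates 1 and 2 alone (−0.52, adjusted p = 0.0169). Of 14 other clock genes tested, 4 rose and 4 fell with i-BET858 at 4 h and 4 rose and 8 fell at 24 h. With i-BET151, 3 rose and 4 fell at 4 h and 3 rose and 2 fell at 24 h. Their medians were −0.12 and 0.07 at 4 h and −0.47 and −0.08 at 24 h. Of all genes tested, 30.8% and 16.2% were called at 4 h and 41.7% and 33.8% at 24 h, i-BET858 first. The count of clock genes with i-BET151 at 24 h lies near that background. The repressor gene BHLHE41 fell in all 4 comparisons, by 2.42, 1.85, 1.79 and 1.21 (adjusted p at most 0.000223). CLOCK fell at 4 h by 1.39 and 1.11 (adjusted p = 8.87e-05 and 0.000948).

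The testicular receptors TR2 and TR4, encoded by NR2C1 and NR2C2, bind the same direct repeats as the retinoid receptors. NR2C1 (ENSG00000120798, chr12:95020229-95073628, minus strand) held 11.9, 15.0 and 10.3 CPM with DMSO, 6.31, 6.30 and 5.20 under i-BET858 and 7.01, 9.41 and 7.16 under i-BET151 at 4 h. The 24 h libraries held 14.7, 12.5 and 11.8 CPM with DMSO, 11.8, 13.9 and 12.7 under i-BET858 and 15.9, 14.8 and 9.60 under i-BET151. The treated libraries lay under DMSO at 4 h, and the groups overlapped at 24 h. NR2C1 fell with i-BET858 at 4 h by 1.06 ± 0.21 (adjusted p = 0.00282), and the i-BET151 value was −0.66 ± 0.21 (adjusted p = 0.0534), called with the replicate block (−0.65, adjusted p = 0.00668). NR2C2 fell at 4 h by 0.75 ± 0.15 (adjusted p = 0.00245) and 0.62 ± 0.15 (adjusted p = 0.0142), and at 24 h rose with i-BET151 by 0.37 ± 0.13 (adjusted p = 0.0463). The rise was lost without any one of DMSO replicates 1, 2 and 3 or i-BET151 replicates 1, 2 and 3 and with DESeq2, DESeq2 size factors, total library sizes or replicates 1 and 2 alone (adjusted p up to 0.152). With i-BET858 the 24 h value was 0.33 ± 0.13 (adjusted p = 0.0669), called with the replicate block (0.32, adjusted p = 0.041), all 18 libraries in the fit (0.36, adjusted p = 0.047) and without i-BET858 replicate 2 (0.41, adjusted p = 0.0422). The 4 h call with i-BET151 was lost without DMSO replicate 3 (adjusted p = 0.054), and 60.5% of the exon bases of NR2C2 are shared with MRPS25 on the other strand.

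The COUP factors are orphan receptors of development and metabolism that mostly repress. NR2F6 fell at 24 h by 0.64 ± 0.10 (adjusted p = 0.000341) and 0.53 ± 0.10 (adjusted p = 0.00166). Its 4 h values, −0.39 ± 0.15 and −0.36 ± 0.15, were called with the replicate block (−0.41, adjusted p = 0.00331 and −0.36, adjusted p = 0.0107). NR2F6 shares 8.32% of its exon bases with the protein-coding gene ENSG00000269095 on the same strand. NR2F1 fell with i-BET858 at 24 h by 0.76 ± 0.21 (adjusted p = 0.0155), with 8 of 9 pairs of libraries lower, a call lost without any one of DMSO replicates 1 and 2 or i-BET858 replicate 3 (adjusted p up to 0.0769). With i-BET151 the 24 h value was −0.41 ± 0.21 (adjusted p = 0.171), called with replicates 1 and 2 alone (−0.62, adjusted p = 0.000673) and without DMSO replicate 3 (−0.62, adjusted p = 0.0115). At 4 h its values were −0.42 ± 0.27 and −0.57 ± 0.27, called with the replicate block (−0.40, adjusted p = 0.0328 and −0.55, adjusted p = 0.00915). NR2F2 was not called, with log2 fold changes between −0.04 and 0.09 and the widest 95% interval from −0.29 to 0.47. None of the 3 tested members of the HNF4, LRH-1 and GCNF group was called, although alternatives called some of their values. With i-BET858 at 4 h HNF4G had −1.4 ± 0.57 (adjusted p = 0.0867), called with replicates 1 and 2 alone (−1.67, adjusted p = 0.0148) and without i-BET151 replicate 3 (−1.4, adjusted p = 0.0484). At 24 h HNF4G held 1.21, 1.11 and 1.18 CPM with DMSO, 0.0218, 0 and 0.556 under i-BET858 and 0.146, 0.152 and 0 under i-BET151. All treated libraries lay under all DMSO libraries, with i-BET858 replicate 3 the highest of them, and only 1 of the 6 treated libraries was over the threshold of the filter. The log2 fold change with i-BET858 was −2.66 ± 1.23 (adjusted p = 0.111), and without i-BET858 replicate 3 it was called (−6.26, adjusted p = 0.00436). It was called as well with replicates 1 and 2 alone, all 18 libraries in the fit or no filter (adjusted p up to 0.0451). With i-BET151 the value was −3.52 ± 1.31 (adjusted p = 0.0604), called with the replicate block (−3.39, adjusted p = 0.0429), DESeq2 (−3.60, adjusted p = 0.0124), all 18 libraries in the fit, no filter, the groups compared alone, replicates 1 and 2 alone and without i-BET858 replicate 2 or 3. NR6A1, the germ cell factor GCNF, was called in that comparison with the block (0.38, adjusted p = 0.0347), with replicates 1 and 2 alone and without DMSO replicate 3. NR5A2 had at most 1.15 CPM.

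**Figure D3:**
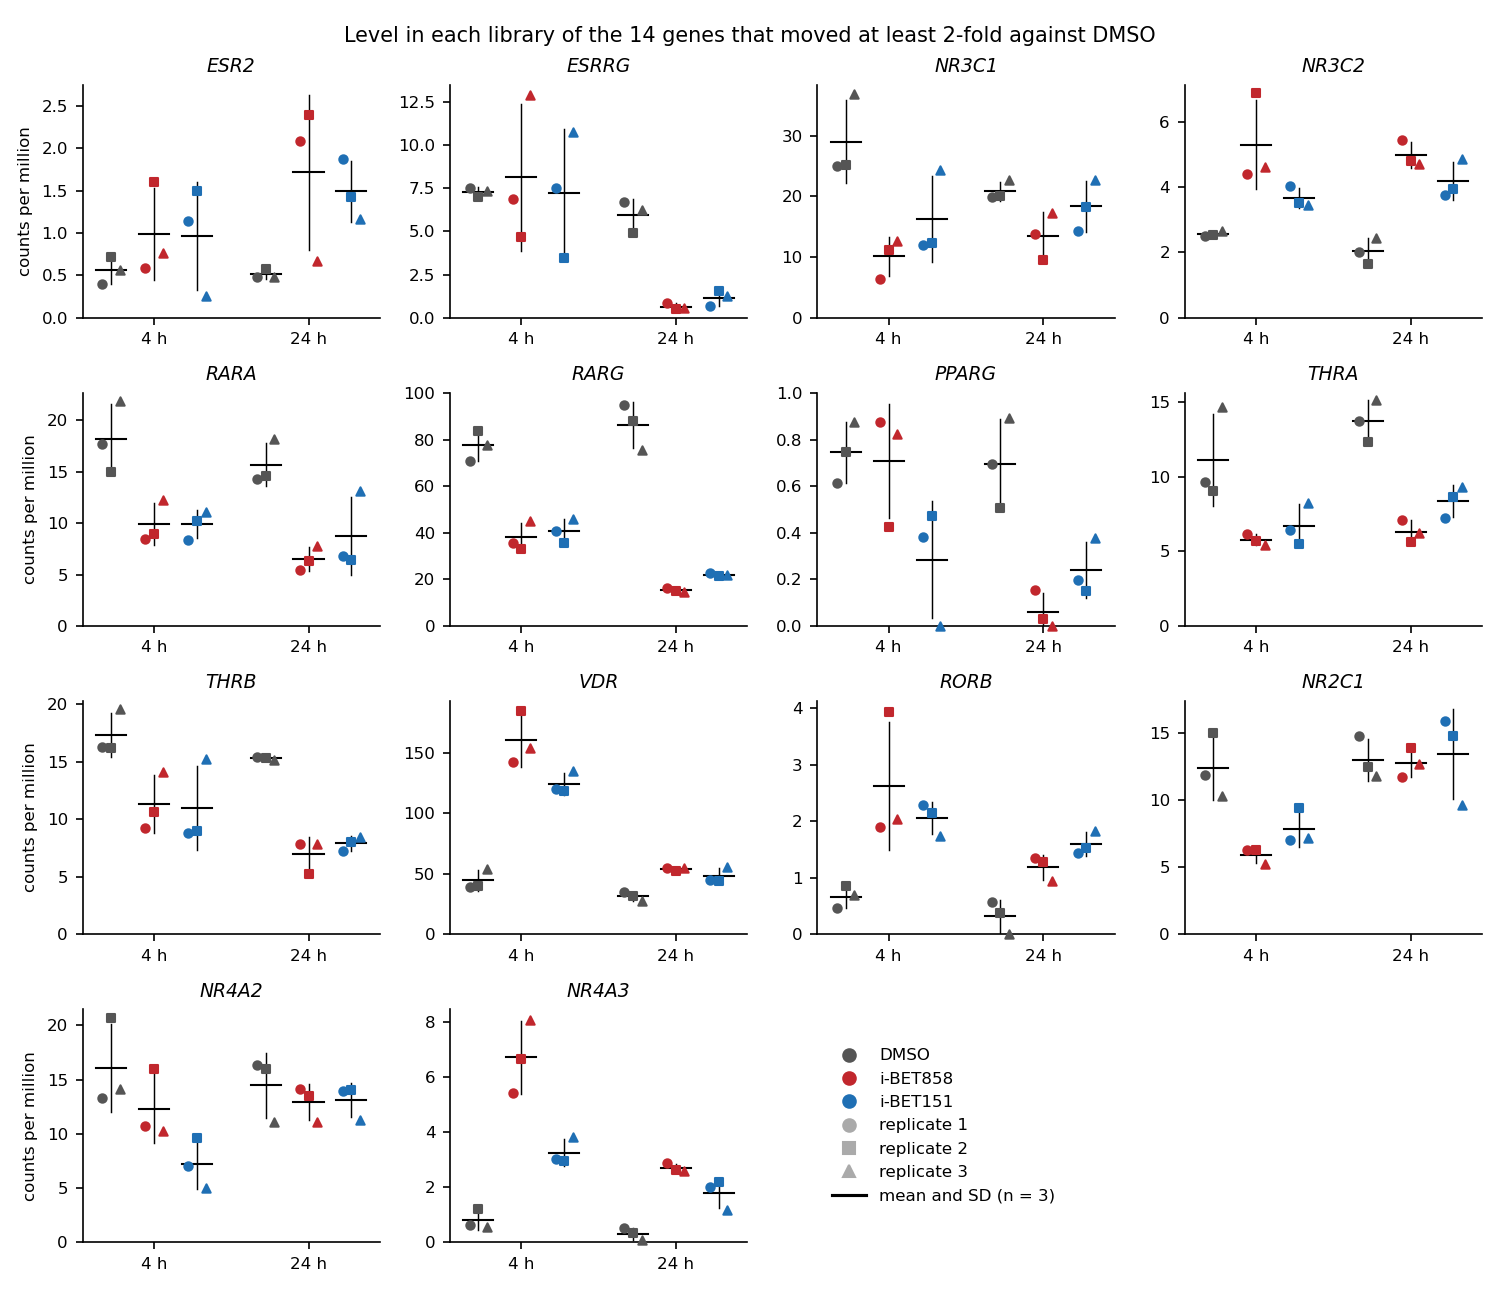
CPM in each of the 18 libraries for the 14 nuclear receptor genes called with a fold change of at least 2 in any comparison with DMSO, with linear axes from 0. Colours mark the treatment, shapes the replicate, and lines the mean and SD of 3 libraries, cut at 0. The RARG libraries of 24 h lie between 14.4 and 22.8 with a BETi and between 75.6 and 95 with DMSO.

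Whether an effect differed between 4 and 24 h was tested with a term for drug and time together, fitted to the 18 libraries at once. Of 35 members tested, 9 were called for i-BET858 (27.2% of all genes tested) and 6 for i-BET151 (13.8%). With replicates 1 and 2 alone there were 13 and 7, beside 7304 and 4735 genes in all in place of 4941 and 2508. The effects on RARG and ESRRG were lower at 24 h than at 4 h. The change of the log2 effect of RARG was −1.46 ± 0.19 with i-BET858 (adjusted p = 2.49e-05) and −1.04 ± 0.19 under i-BET151 (adjusted p = 0.00138). That of ESRRG was −3.35 ± 0.58 (adjusted p = 0.000345) and −2.38 ± 0.56 (adjusted p = 0.00914). The rise of VDR was smaller at 24 h with each compound, with changes of −1.06 ± 0.20 (adjusted p = 0.000747) and −0.85 ± 0.20 (adjusted p = 0.0091). That of PPARD changed by −0.59 ± 0.16 (adjusted p = 0.0114) and −0.58 ± 0.16 (adjusted p = 0.0234), calls lost with no filter (adjusted p = 0.0951) and without any one of DMSO 24 h replicates 1 and 2, DMSO 4 h replicates 1 and 2 or i-BET151 24 h replicates 2 and 3 and with no filter (adjusted p up to 0.134).

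The testicular receptor gene NR2C2 went from a fall at 4 h to values above DMSO at 24 h, a change of 1.12 ± 0.20 with i-BET858 (adjusted p = 0.000423) and 1.01 ± 0.20 under i-BET151 (adjusted p = 0.00266). NR1D2 changed the same way by 0.67 and 0.73 (adjusted p = 0.0124 and 0.0148). For i-BET858, RXRB and NR2C1 fell at 4 h and were not called at 24 h, with changes of 0.99 ± 0.18 (adjusted p = 0.000453) and 1.04 ± 0.29 (adjusted p = 0.0118). The same changes with i-BET151 were 0.42 ± 0.18 (adjusted p = 0.126) and 0.71 ± 0.29 (adjusted p = 0.114), of which NR2C1 was called with the replicate block (0.68, adjusted p = 0.0366). The effect of i-BET858 on NR4A1 was lower at 24 h, with a change of −1.16 ± 0.35 (adjusted p = 0.0177), a call lost without any one of DMSO 24 h replicates 1 and 2 or DMSO 4 h replicate 1 (adjusted p up to 0.0512). The change of NR4A3 was 0.02 ± 0.39 with i-BET858, 95% interval −0.80 to 0.83, and was not called. The block also called NR1H2 (0.62, adjusted p = 0.00256), NR3C1 (0.88, adjusted p = 0.00998) and RXRA (0.51, adjusted p = 0.00697) for i-BET858 and NR4A2 (1.04, adjusted p = 0.00213) for i-BET151. For i-BET858, HNF4G and PPARG were called with replicates 1 and 2 alone (−4.54, adjusted p = 0.00207 and −2.54, adjusted p = 0.0211).

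**Figure D4:**
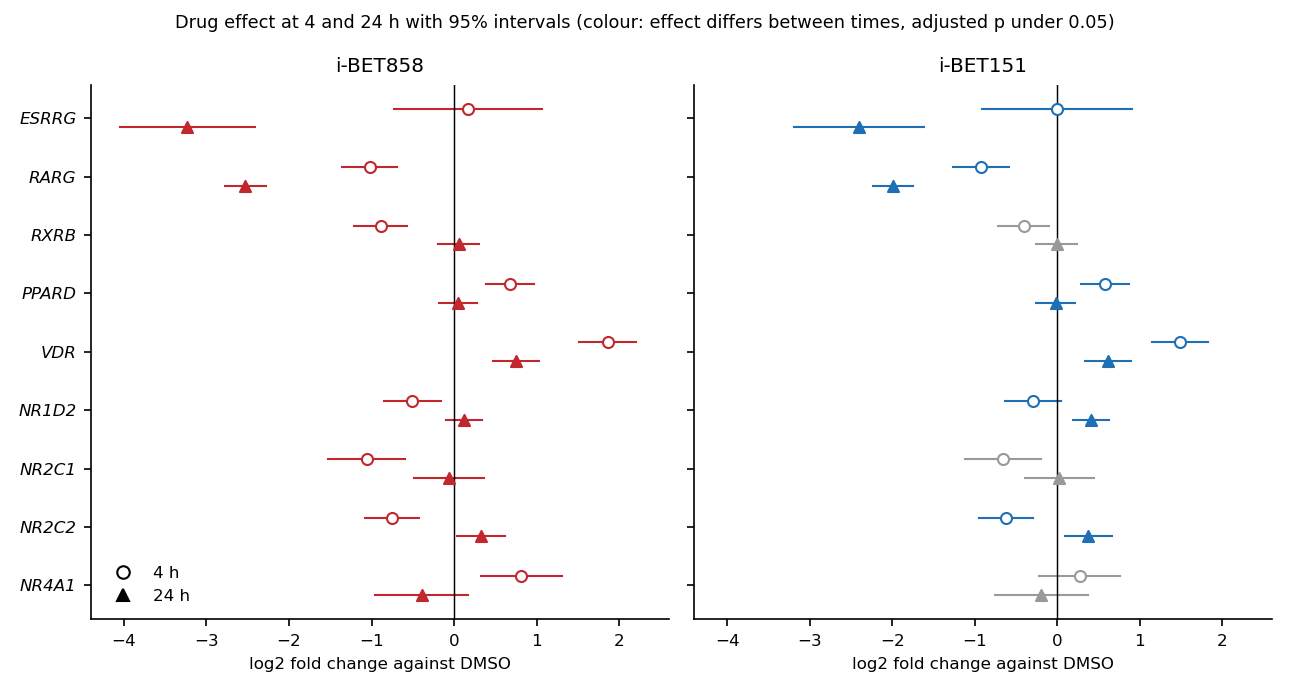
Log2 fold change against DMSO at 4 h (open circles) and 24 h (filled triangles) with 95% intervals, for the 9 nuclear receptor genes whose effect differed between the times with at least 1 compound. Coloured genes passed the interaction test for the compound of that panel and grey ones did not. ESRRG and RARG move left and NR2C2 moves right from 4 to 24 h.

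The 2 compounds were compared directly at the same dose and times. No member was called at 4 h, where 0.971% of all genes tested were called, or at 24 h, where 0.21% were (edgeR, adjusted p under 0.05). At an unadjusted p under 0.05 there were 5 members at each time, where 11.9% of all genes lay under it at 4 h and 11.4% at 24 h, near the members' share of 14.7%. DESeq2 called 1 member at each time, beside 667 and 424 genes in all, and replicates 1 and 2 alone gave 0 and 1 beside 392 and 1261, where 167 and 36 genes in all were called with every replicate. NR4A3 was higher with i-BET858 at 4 h by 1.05 ± 0.31, 95% interval 0.36 to 1.74, in 9 of 9 pairs of libraries (adjusted p = 0.161). DESeq2 and the replicate block called it (1.05, adjusted p = 0.0268 and 1.03, adjusted p = 0.028). RARG was lower with i-BET858 at 24 h by 0.54 ± 0.11, 95% interval −0.78 to −0.30, again in 9 of 9 pairs (adjusted p = 0.0791). It was called by DESeq2 (−0.52, adjusted p = 0.00629) and with the block (−0.54, adjusted p = 0.0102).

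At 4 h the block called 1655 genes in all in place of 167. Beside NR4A3 it called RXRB, lower with i-BET858 (−0.48, adjusted p = 0.023), NR3C1, lower (−0.65, adjusted p = 0.0268), and NR4A2, higher (0.79, adjusted p = 0.00561). Their values without the block were −0.48 ± 0.14 (adjusted p = 0.164), −0.68 ± 0.32 (adjusted p = 0.442) and 0.78 ± 0.28 (adjusted p = 0.258). For VDR the difference at 4 h was 0.37 ± 0.15, 95% interval 0.04 to 0.71 (adjusted p = 0.338). The intervals of some members were narrow. That of NR2F2 ran from −0.35 to 0.41 at 4 h and from −0.18 to 0.25 at 24 h, and that of ESRRA from −0.33 to 0.26 and −0.29 to 0.21. At the low counts of ESR1 it ran from −1.44 to 3.03 and −1.97 to 2.58, and a difference between the compounds was not detectable there at this depth.

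**Figure D5:**
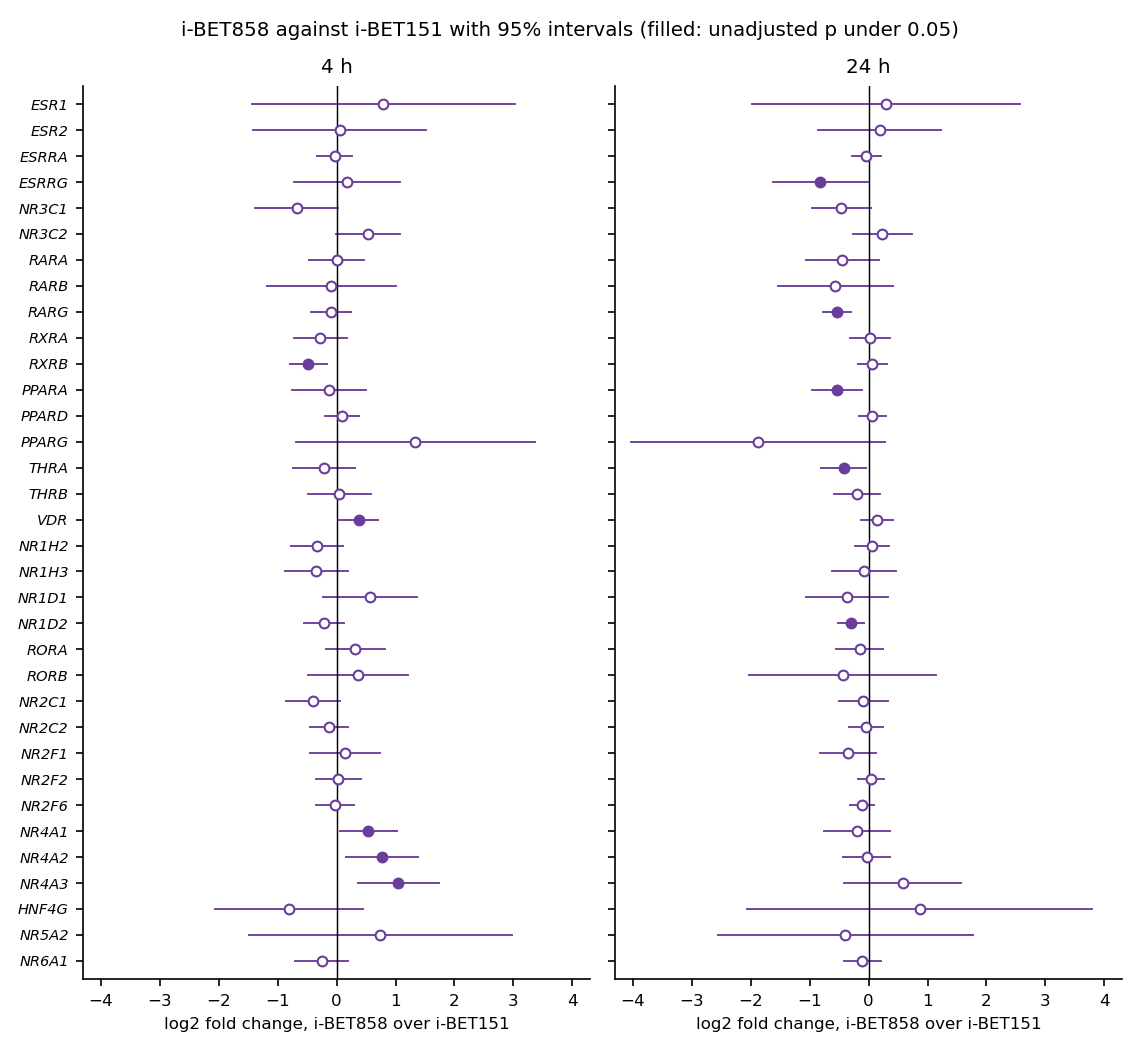
Log2 fold change of i-BET858 over i-BET151 with 95% intervals for the 34 nuclear receptor genes tested, at 4 and 24 h. Filled points have an unadjusted p under 0.05, 5 at each time, and no gene had an adjusted p under 0.05 in this test.

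Receptors act through coregulators, and these moved in both directions. Of 18 coactivator genes, 3 rose and 8 fell with i-BET858 at 4 h and 6 rose and 6 fell at 24 h. With i-BET151, 2 rose and 6 fell at 4 h and 4 rose and 3 fell at 24 h. Over all genes tested, 30.8% and 16.2% were called at 4 h and 41.7% and 33.8% at 24 h, i-BET858 first. The i-BET151 count of 24 h lies near that background. The list medians were −0.23 and −0.20 at 4 h and 0.21 and 0.05 at 24 h. PNRC1 rose in all 4 comparisons, by 1.97, 1.33, 1.67 and 1.12 on the log2 scale (adjusted p at most 0.000275). NCOA6 fell at 4 h by 1.61 and 1.16 (adjusted p = 2.52e-05 and 0.000573). PPARGC1B, a partner of the ERR receptors in mitochondrial gene control, fell with i-BET858 by 1.60 at 4 h and 0.66 at 24 h (adjusted p = 0.000393 and 0.00527). With i-BET151 it fell by 0.98 at 4 h (adjusted p = 0.0141), a call lost without any one of DMSO replicate 3 or i-BET151 replicate 1 (adjusted p up to 0.0646), and the 24 h value was −0.05 (adjusted p = 0.829). Of 8 corepressor genes tested, 1 rose and 3 fell with i-BET858 at 4 h and 3 rose and 2 fell at 24 h, and under i-BET151 1 rose and 1 fell at 4 h and 3 rose and 1 fell at 24 h. Their medians were −0.10 and −0.19 at 4 h and 0.29 and 0.37 at 24 h. TRIM24 rose in all 4 comparisons, by 1.75 and 1.32 at 4 h and 1.43 and 1.22 at 24 h, and TBL1XR1, a subunit of the NCoR complex, fell by 0.99 and 1.03 and then by 1.95 and 1.36 (adjusted p at most 0.00104 for these).

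Of 10 further nuclear receptor genes outside the list, 4 passed the filter, of which 1 rose with i-BET858 at 4 h and 1 fell with i-BET858 at 24 h. ESRRB, the remaining oestrogen-related receptor, rose with i-BET858 at 4 h by 2.12 (adjusted p = 0.0344), a call lost without any one of DMSO replicates 1 and 3 or i-BET858 replicates 1 and 2 and with total library sizes or all 18 libraries in the fit (adjusted p up to 0.173). NR1I3, the xenobiotic receptor CAR, fell with i-BET858 at 24 h by 3.16 (adjusted p = 0.00344), and shares 20.4% of its exon bases with TOMM40L. Of the genes named that are not members, some passed the filter with fewer than 3 libraries of a group over its threshold at a time for which they are named. These were ESRRB, NR1I3, RET, ANGPTL4, CYP24A1, PLAAT4, TRPV6, ORM1 and CD14.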

How the data were processed

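RNA of OVCAR-3 cells was poly-A enriched and sequenced as paired 150-base reads. The authors aligned reads with STAR to GRCh38, and the deposited values are raw gene counts from STAR. The annotation and the strand column used are not given in the sources used here. Column names gave treatment and replicate, and the time came from the table a column stood in. Of 58825 identifiers, 58472 (99.4%) matched GENCODE 44. The members and gene lists were chosen with earlier results of these data known. Counts were tested with edgeR 4.0.16 in R 4.3.3 (TMM, filterByExpr with at least 10 counts, quasi-likelihood test, Benjamini-Hochberg adjustment over all genes tested). The 9 libraries of a time were fitted together, and all 18 for interactions and for time in DMSO. Errors are standard errors for log2 fold changes and SDs for levels. CPM were scaled by TMM over 18 libraries, with factors of 0.893 to 1.087. Alternatives were DESeq2 1.42.0 and its size factors, total library sizes, other filters, the replicate block, replicates 1 and 2 alone, other sets of libraries in the fit, and each library left out. Libraries of the same replicate number deviated together from their group means in every one of 9 pairs (r = 0.141 to 0.365 at 4 h, 0.161 to 0.352 at 24 h). Those of different numbers had −0.341 to 0.233 and −0.329 to 0.326. Deviations from a group mean cancel out within the group, so positive values for some pairs bring negative ones for others. These values therefore cannot show by themselves that equal numbers are pairs, and the block takes them as such. Every value between replicate 3 and replicates 1 or 2 was negative, and the positive values for different numbers lay between replicates 1 and 2. At 24 h i-BET151 replicate 1 had 0.326 with i-BET858 replicate 2 and 0.223 with i-BET858 replicate 1. The data thus set replicate 3 apart more clearly than they separated replicates 1 and 2. Members called with a fold change of at least 2 in any comparison with DMSO are given library by library. HNF4G at 24 h and the 24 h counts of RXRG were added after their values were seen. Others are given by test values or ranges, with the 5 members highest in DMSO, and of each further list up to 3 genes by fold change. CRABP2 was named after its values were seen. A gene of the retinoic acid targets and one of the further nuclear receptors are not reported here, and the counts of both lists are without them. The scripts were tested on simulated data.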

Additional observations from a re-analysis of the deposited data

Results flagged for a closer look

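The effect of a BETi was compared between 4 and 24 h as an interaction in edgeR, and the nuclear receptor genes below differed between the times at an adjusted p under 0.05. Each value is the log2 fold change against DMSO at 24 h minus that at 4 h.  With i-BET858 the effect moved downward for ESRRG −3.35 (adjusted p = 0.000345), RARG −1.46 (adjusted p = 2.49e-05), NR4A1 −1.16 (adjusted p = 0.0177), VDR −1.06 (adjusted p = 0.000747) and PPARD −0.59 (adjusted p = 0.0114). It moved upward for NR2C2 1.12 (adjusted p = 0.000423), NR2C1 1.04 (adjusted p = 0.0118), RXRB 0.99 (adjusted p = 0.000453) and NR1D2 0.67 (adjusted p = 0.0124). With i-BET151 it moved downward for ESRRG −2.38 (adjusted p = 0.00914), RARG −1.04 (adjusted p = 0.00138), VDR −0.85 (adjusted p = 0.0091) and PPARD −0.58 (adjusted p = 0.0234), and upward for NR2C2 1.01 (adjusted p = 0.00266) and NR1D2 0.73 (adjusted p = 0.0148). The 2 compounds share the DMSO libraries at each time, so these changes are not independent of each other. No technical measure was tested beside them.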

How the results depend on the processing

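Of 73 calls of nuclear receptor genes, 46 held under every alternative that was run. The same share over all genes was not computed. Over the calls of members and of the named genes of the other lists, and the values of the 14 members with a call of at least 2-fold, 3457 values of 3762 under the alternatives kept their direction and side of the threshold, 249 lost the call, 38 gained it and 18 changed sign. Of 236 tests of members that gave no call, 42 gave one under at least 1 alternative (124 of 4133 values). Where a value is given as called with the block, further settings may have called it too. Of the counts against DMSO, that of i-BET151 at 4 h moved from 9 to 19 with the replicate block and to 16 with replicates 1 and 2 alone. With a fold change of at least 2 the counts were 7, 4, 9 and 6 for i-BET858 and i-BET151 at 4 h and then 24 h, and 3 for the interaction of i-BET151. Between the compounds, the count of 0 at 4 h became 1 with DESeq2, 4 with the replicate block (1655 genes in all) and 1 in a fit of all 18 libraries. At 24 h it became 1 with DESeq2, without a filter on low counts, with the block and with replicates 1 and 2 alone. The counts over all genes in these settings were 424, 343, 749 and 1261, in place of 36. The count of 0 for time in DMSO became 1 with the block. The block lost no member's call. With single libraries left out, the counts over all genes ranged from 4125 to 5936 and 1685 to 3222 at 4 h. At 24 h they ranged from 5763 to 7963 and 4272 to 6175, i-BET858 first. Between the compounds they ranged from 0 to 129 at 4 h and 1 to 110 at 24 h. The members' counts given next stand beside these. With each library left out in turn, the counts ranged from 14 to 19 and 5 to 12 at 4 h, from 11 to 16 and 9 to 17 at 24 h, from 0 to 0 and 0 to 1 between the compounds at 4 and 24 h, from 8 to 10 and 5 to 7 for the interactions, and from 0 to 0 for time in DMSO. The sign changes were all in values near 0 that were not called. ESRRG with i-BET858 at 4 h (0.17) became −0.00482 with total library sizes, −0.33 with replicates 1 and 2 alone and ranged from −0.34 to 0.45 with single libraries left out. With i-BET151 at 4 h, ESRRG (−0.0038) became 0.0016 with DESeq2, 0.00576 with its size factors, 0.0131 with at least 10 counts in every library and 0.00484 with the groups compared alone, and ranged from −0.41 to 0.33 with single libraries left out. In the same way, PPARG with i-BET858 at 4 h (−0.07) ranged from −0.25 to 0.19, NR2C1 with i-BET858 at 24 h (−0.065) from −0.13 to 0.032 and NR2C1 with i-BET151 (0.026) from −0.12 to 0.21, the last with −0.00547 under total library sizes. The cause was not tested. Scaling by total library sizes moved the median of all genes to −0.14 and −0.05 at 4 h and to −0.10 and −0.03 at 24 h. For all genes tested, the count for time in DMSO moved from 7 to 375 with the block. PGR, RXRG and HNF4A did not pass the filter on low counts at 4 or 24 h. RXRG alone of them was called by an alternative, with DESeq2 and without the filter.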
